A study of Rattus norvegicus with 4 samples.

Results

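Prolactin, growth hormone and the other hormones of the anterior pituitary were measured in rat hippocampus, together with the receptors of prolactin and growth hormone. The genes were prolactin (Prl), the prolactin receptor (Prlr), growth hormone (Gh1), its receptor (Ghr), proopiomelanocortin (Pomc), the shared alpha subunit of the glycoprotein hormones (Cga), and the beta subunits of luteinizing hormone (Lhb), follicle-stimulating hormone (Fshb) and thyroid-stimulating hormone (Tshb). They were chosen by symbol, with the low ratio of Prl after resistance running already known, so every value of Prl below is a description and not a test. Of the 9 genes, 8 had a probe on the array, with 10 probes and 37 spots among 41012 probes and 43379 noncontrol spots in all. No probe was matched to Fshb here. Ghr had 3 probes, Prl, Prlr and Pomc had 10 replicate spots each on every chip, and the other probes had 1 spot.

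The samples were hippocampi of male Wistar rats that were 10 weeks old when the experiment began. Sedentary rats (n = 10), rats with voluntary wheel running without a load (WR, n = 8) and rats with resistance wheel running (RWR, n = 8), in which the load was raised to 30% of body weight, were compared after 4 weeks. RNA was pooled within each group, so each group is 1 pool. The RNA amounts in the methods come to 3 replicates in equal parts per pool, and whether a replicate is 1 rat is not stated in the sources used here. Chips 1 and 2 set the WR pool against the sedentary pool, and chips 3 and 4 did so for RWR. The running pool was in Cy5 on chips 1 and 3 and in Cy3 on chips 2 and 4. The comparison asks how running of either kind relates to transcript levels in the hippocampus. The chips of a pair measured the same pools, so the conditions could not be tested against each other, and every SD below is that between chips or between spots. Both comparisons rest on a sedentary pool, and the sources do not say whether it was the same pool on all 4 chips.

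Prolactin and growth hormone are related protein hormones made by separate cell types of the anterior pituitary, where the transcription factor Pou1f1 (Pit-1) drives Prl, Gh1 and Tshb. Prolactin is best known for lactation, but it and its receptor also occur in the brain, where prolactin has been linked to stress responses, maternal behaviour and the birth of new neurons. Both receptors signal through the kinase Jak2 and the Stat5 factors, and growth hormone acts in large part by inducing Igf1.

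The promoter of Prl is shown because Pou1f1 acts there in the pituitary. RefSeq gives for GRCr8 the following 250 bases before the start of the gene, on the minus strand at chr17:38298218-38298467, printed 5′ to 3′ with a match to the Pit-1-like letters ATGNATA in capitals.
Prl: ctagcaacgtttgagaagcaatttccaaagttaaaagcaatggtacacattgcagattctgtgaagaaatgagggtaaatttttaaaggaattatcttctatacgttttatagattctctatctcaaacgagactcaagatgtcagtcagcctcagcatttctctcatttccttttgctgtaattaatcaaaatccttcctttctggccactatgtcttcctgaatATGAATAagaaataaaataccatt
The match begins 24 bases before the start that RefSeq annotates. Whether pituitary transcription starts there was not looked at. Searched on both strands in windows of 300 bases, from 250 bases before to 50 after each start, these letters occurred in 9.88% of 33469 promoters and in 1 of the 9 promoters listed for 7 of these genes, that of Prl. A match is a description of the letters only.

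The share of spots well above background ranged over the chips from 67.5% to 82.5% for the sedentary pool and from 69.1% to 77.9% for the running pool, and 118 to 140 outlier spots per chip were set aside. After the dye swap was turned, the ratios of running over sedentary agreed in sign on both chips for 22.4% of all probes in WR and 27.2% in RWR, and their Pearson's r across probes was -0.761 and -0.686. The part of the ratio that turned with the dye had a median size of 0.17 and 0.16 on the log2 scale, against 0.08 and 0.08 for the part that stayed with running. Of 11 listed markers of hippocampal neurons, 4 had a probe (Wfs1, Calb1, Grik4 and Bok), and all 4 were well above background in both pools on every chip. In pooled tissue, fewer cells of a type and less RNA per cell cannot be told apart.

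Prl was down-regulated in Sed × RWR, and none of the other hormones or receptors was called in either running mode. A call asked for more than 1.5-fold or less than 0.75-fold in each chip of the pair, each time with a deposited error-model p under 0.01. In RWR, 0.0585% of all probes met it (0.0488% downwards), and among these 10 probes 1 did, that of Prl. In WR, 0.0317% of all probes met it (0.0293% downwards), and 0 of the 10 did. By the fold alone, 0.549% of all probes passed in WR and 1.48% in RWR, and of the 10 only Prl passed, in both. The ratio had the same sign on both chips for 2 of the 10 probes in Sed × WR, those of Prl and Gh1, which were lower in running, as were 10.7% of all probes, and 0 of 10 were higher on both, as were 11.6% of all probes. In Sed × RWR it had the same sign for 3 of 10: Prl and Gh1 were again lower on both chips, as were 14.8% of all probes, and Pomc was higher, as were 12.4%. The median log2 ratio of the 10 probes was -0.08 in Sed × WR and -0.06 in Sed × RWR, and that of all probes was 0.00 in both.

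**Figure D1:**
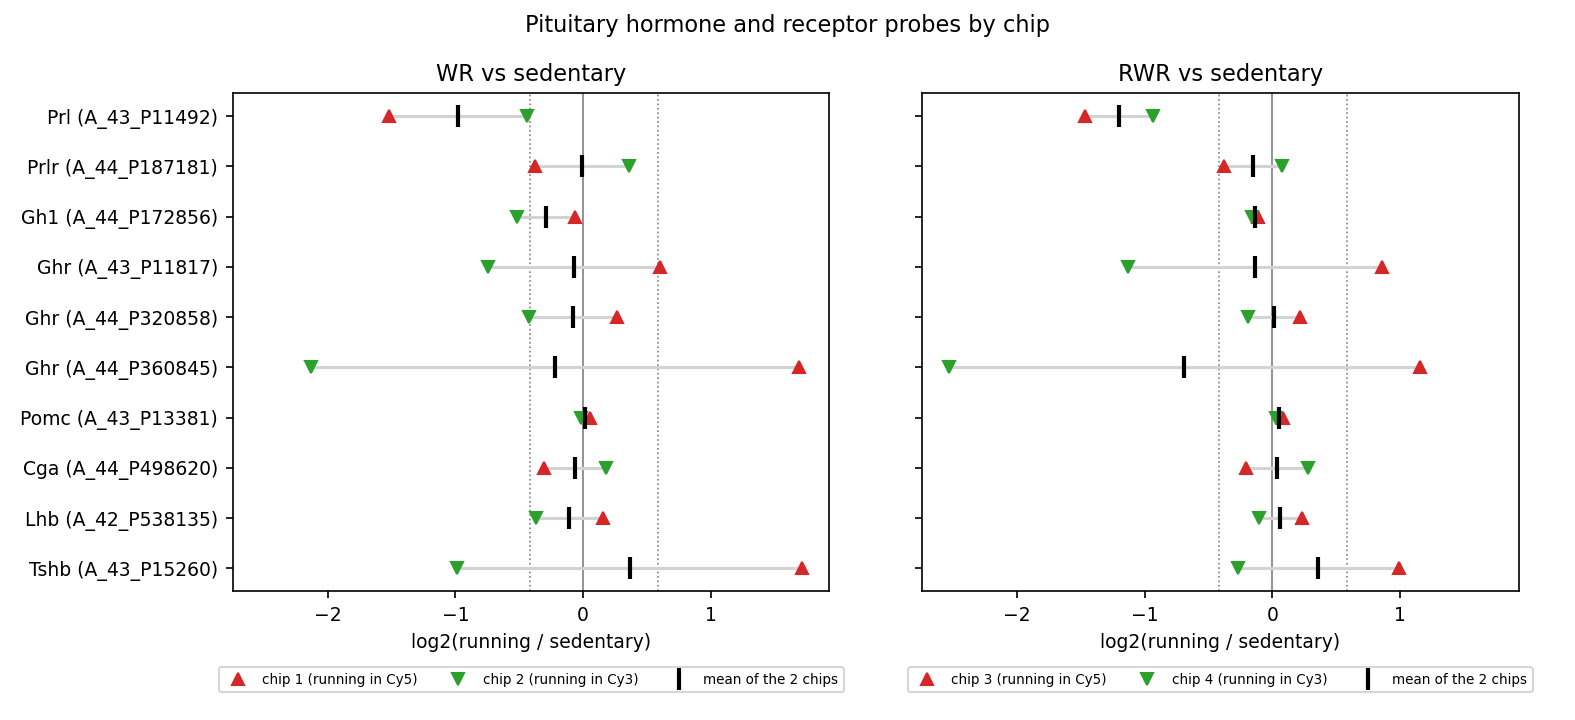
Log2 ratio of running over sedentary for each of the 10 probes, with WR on the left and RWR on the right. Triangles are the single chips, black bars their mean, and dotted lines mark 0.75-fold and 1.5-fold; only Prl has both triangles below 0.75-fold, while the triangles of Ghr and Tshb lie on opposite sides of 0. Ratios of probes not well above background are plotted as deposited.

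The probe of Prl (A_43_P11492) gave a low signal that was higher in the sedentary pool than in the running pool on every chip. In arbitrary units of the processed signal, the sedentary pool measured 32.9, 28.0, 29.5 and 34.3 on chips 1 to 4, with a mean of 31.2 ± 2.94 (SD over 4 chips). The WR pool measured 12.6 and 20.8 on chips 1 and 2, and the RWR pool 11.1 and 20.2 on chips 3 and 4. All 4 sedentary signals thus lay above all 4 running signals, which was the case for 0.229% of all probes. In both running pools the lower of the signals was the one in Cy5. The sedentary signal cleared the background on all 4 chips and the running signal on none, so the running level has only a bound. With the background-subtracted signals after Aquantile normalization, averaged over a pair, this bound was 2.01-fold lower in RWR and 1.5-fold lower in WR than in the sedentary pool. It belongs to that processing and is no general minimum. The ratios of chips 2 and 4 alone, and those under both background alternatives, given below, were smaller.

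On the log2 scale, the deposited ratio of Prl in Sed × RWR was -1.47 on chip 3 and -0.94 on chip 4, a mean of -1.20 ± 0.38 (SD over 2 chips). As the running level was not above background, these ratios and those in WR are no measured folds. The deposited error-model p was 0.00107 on chip 3 and 0.00757 on chip 4. In Sed × WR the ratio was -1.52 on chip 1 and -0.44 on chip 2, a mean of -0.98 ± 0.76 (SD over 2 chips). Chip 2 lay only just below the 0.75-fold limit and its error-model p was 0.203, against 0.00614 on chip 1, so in WR Prl passed the fold and not the p. Whether WR and RWR differed for Prl was not tested.

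The replicate spots show the same order in more detail. Of 38 spots of Prl kept over the 4 chips, 37 were lower in the running pool, at 19 of 19 spots with WR and at 18 of 19 with RWR. The sedentary pool was well above background at 36 of them and the running pool at 7. Spots of a chip share the pools and the hybridization, so they show how evenly a chip measured, not how rats vary. Single spots ranged from 21.7 to 50.3 in the sedentary pool and from 4.81 to 39.7 in the running pool. The 1 spot that was higher in running lay on chip 4, at 0.32 on the log2 scale. Averaged over the chips of a pair, the 9 spots measured on both gave log2 ratios from -1.45 to -0.61 in Sed × WR and from -1.99 to -0.51 in Sed × RWR, with medians of -0.90 and -1.19. None of these spot means was above 0. Left out were 2 flagged spots, whose ratios were 0 on chip 1 and -0.03 on chip 4. With them kept, the mean was -1.16 in Sed × RWR, the p on chip 4 became 0.0328, and Prl was no longer called.

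**Figure D2:**
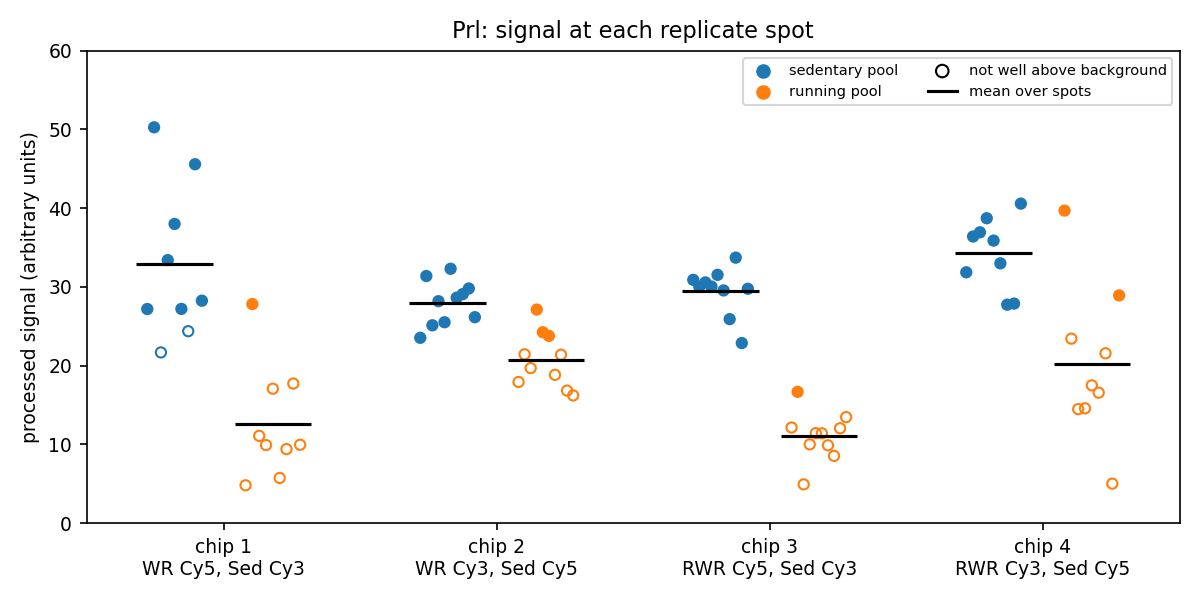
Processed signal in arbitrary units of every Prl spot kept on the 4 chips, in blue for the sedentary pool and in orange for the running pool. Open circles are not well above background and lines are means over spots; the sedentary spots lie between 21.7 and 50.3 and the running spots, mostly open, between 4.81 and 39.7.

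The size of the Prl ratio depended on the processing. On chip 3 the median pixel of the spots averaged 257 in the sedentary dye over a local background of 84.7, and 98.3 in the running dye over 65.4. On chip 4, with the dyes swapped, it averaged 143 over 66.0 for the sedentary pool and 223 over 85.4 for RWR. Before dye normalization Cy3 was thus the brighter dye whichever pool it carried, and the same held on chips 1 and 2. Without background correction and with loess, the log2 ratio was -0.17 in Sed × WR and -0.21 in Sed × RWR, and with normexp correction (offset 50) and loess it was -0.13 and -0.29. It remained below 0 on each of the 4 chips under both, between -0.26 and -0.09 without correction and between -0.30 and -0.12 with normexp, but Prl was not called under either. Both alternatives also started from median pixel signals and used another dye normalization, so the part of the background alone was not tested.

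**Figure D3:**
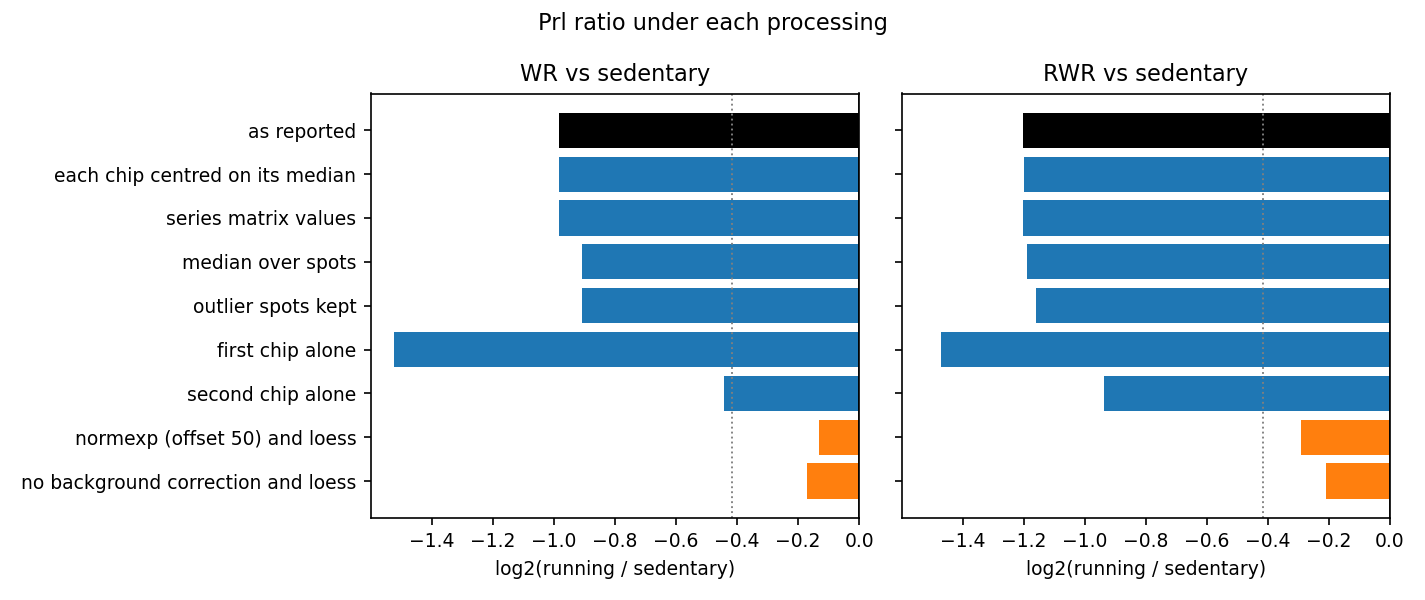
Log2 ratio of running over sedentary of Prl under each processing, with WR on the left and RWR on the right. The dotted line marks 0.75-fold; the bars of both background alternatives (orange) end between it and 0, and all other bars, single chips included, extend past it.

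Gh1, the growth hormone of the somatotroph cells, was well above background in both pools on all 4 chips. Its probe (A_44_P172856) measured 58.0 and 68.2 in the sedentary pool against 55.5 and 47.6 in WR, on chips 1 and 2. On chips 3 and 4 it measured 71.5 and 83.1 in the sedentary pool against 66.1 and 74.5 in RWR. The running pool was lower on each chip, as was the case on all 4 chips for 3.55% of all probes, but the signals of the pools overlapped in RWR. The mean log2 ratio was -0.29 ± 0.32 (SD over 2 chips) in Sed × WR and -0.14 ± 0.03 in Sed × RWR, and neither was called. It has 1 spot per chip, so no spread over spots can be given.

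Pomc, the precursor of adrenocorticotropic hormone, melanocyte-stimulating hormones and beta-endorphin, was well above background at every spot and differed little between chips. Its probe (A_43_P13381) measured 448, 417, 474 and 421 in the sedentary pool on chips 1 to 4. The running pools measured 465 and 412 in WR and 503 and 429 in RWR. The groups overlapped, and the log2 ratio was 0.02 ± 0.05 (SD over 2 chips) in Sed × WR and 0.06 ± 0.04 in Sed × RWR. In Sed × RWR, 17 of 20 spots were higher in running and the means of all 10 spots over the pair lay between 0.03 and 0.09 on the log2 scale. In Sed × WR, 10 of 20 spots were higher. Pomc was called in neither running mode.

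The subunits of the glycoprotein hormones had ratios that turned with the dye. Cga (A_44_P498620), the subunit that luteinizing, follicle-stimulating and thyroid-stimulating hormone share, measured 107, 89.6, 130 and 131 in the sedentary pool and 86.4, 101, 113 and 159 in the running pool on chips 1 to 4. It was lower in running on chips 1 and 3 and higher on chips 2 and 4, and its mean log2 ratio was -0.06 ± 0.34 in Sed × WR and 0.04 ± 0.34 in Sed × RWR (SD over 2 chips). Lhb (A_42_P538135), which gives luteinizing hormone its identity, measured 154, 160, 177 and 200 in the sedentary pool and 171, 124, 207 and 186 in the running pool. Its order was the reverse of that of Cga on every chip, with mean log2 ratios of -0.11 ± 0.37 and 0.06 ± 0.24. Tshb (A_43_P15260) was dim: the sedentary pool measured 4.66, 20.5, 15.3 and 52.6, and the running pool 15.3, 10.4, 30.5 and 43.5. Its sedentary level was well above background on 1 chip of each pair, and its running level on 0 chips of WR and 2 of RWR. Its ratios on the log2 scale were 1.00 and -0.27 in Sed × RWR, on opposite sides of 0, and no fold is given for WR.

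The receptor of prolactin was not measurable here. The probe of Prlr (A_44_P187181) was well above background at 0 of 35 spots in either pool, with chip means from 4.78 to 9.88 in the sedentary pool and from 5.53 to 7.49 in the running pool, so no fold is given. In WR its spots were lower in running at 7 of 9 on chip 1 and 2 of 9 on chip 2, and in RWR 10 of 17 were lower and 6 higher.

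Ghr, through which growth hormone acts, was read by 3 probes that differed in brightness, and none was called. The probe A_44_P320858 was well above background in both pools on every chip, at 73.8, 91.1, 82.0 and 86.4 in the sedentary pool and 88.6, 67.9, 95.2 and 75.6 in the running pool. Its mean log2 ratio was -0.08 ± 0.49 in Sed × WR and 0.01 ± 0.29 in Sed × RWR (SD over 2 chips). The probe A_43_P11817 measured 47.3, 62.7, 36.0 and 57.7 in the sedentary pool and 71.8, 37.3, 65.2 and 26.3 in the running pool. Whichever pool carried Cy5 was the higher at both of these probes on all 4 chips. The log2 ratios of A_43_P11817 were 0.60 and -0.75 with WR, and 0.86 and -1.13 with RWR, so their means, -0.07 and -0.14, were small beside SDs of 0.95 and 1.41. The third probe, A_44_P360845, was well above background on at most 1 chip of a pair in either pool, and its log2 ratios of 1.16 and -2.53 in Sed × RWR also turned with the dye.

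Each ratio can be split into a part that stayed with running and a part that turned with the dye. With the deposited processing, the running part was the larger for Prl and Gh1 in both pairs, which also held under both background alternatives. For Pomc and Tshb, which part was the larger depended on the processing. For Prl the running part was -0.98 in Sed × WR and -1.20 in Sed × RWR on the log2 scale, against a dye part of -0.54 and -0.27. For Gh1 it was -0.29 against 0.23 in Sed × WR and -0.14 against 0.02 in Sed × RWR. For the Ghr probe A_43_P11817 the dye part was 0.67 and 1.00, larger than its running part in both pairs.

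**Figure D4:**
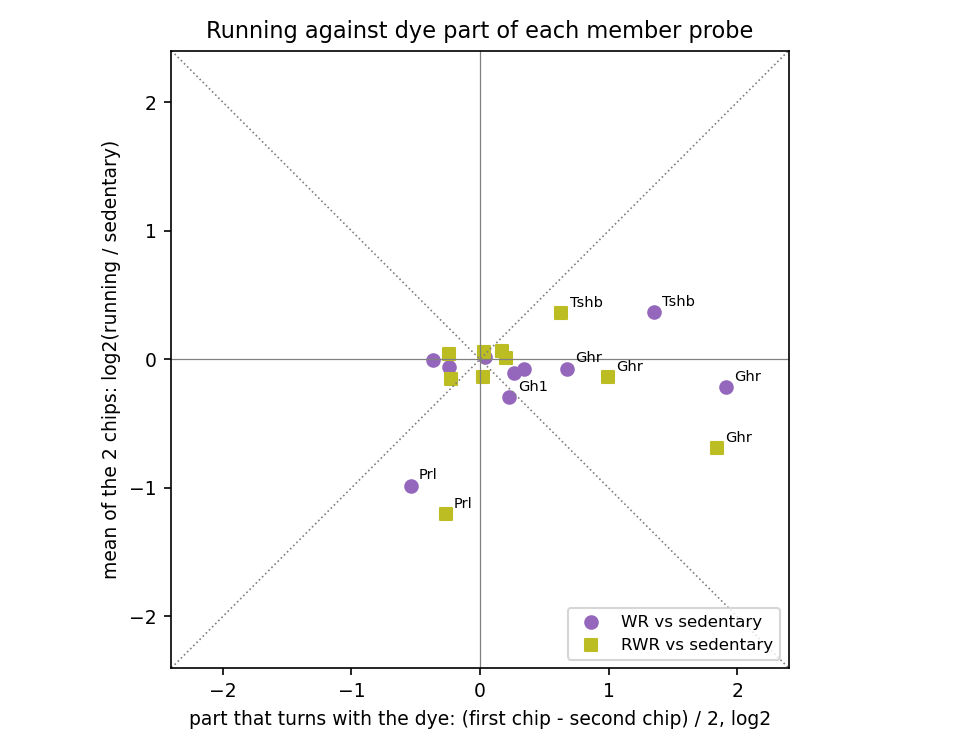
Mean log2 ratio of running over sedentary against the part of the ratio that turned with the dye (the difference between the chips of a pair divided by 2), for the 10 probes in WR (circles) and RWR (squares). Dotted diagonals mark parts of equal size; Prl lies in the lower sector, where the running part is the larger. Probes not well above background are plotted too, and their positions are not measured folds.

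None of the genes listed around these hormones for their role in the same pathway was called in either running mode. Of all probes, 0.0317% were called in WR and 0.0585% in RWR, so 0 calls in lists this short carry little weight. Of 20 releasing and inhibiting factors and their receptors, 19 had a probe, with median log2 ratios of -0.06 in Sed × WR and 0.02 in Sed × RWR, against 0.00 for all 8892 named genes in both. Trh, whose peptide releases thyroid-stimulating hormone and prolactin, was higher in WR on both chips, at 0.79 and 0.93 on the log2 scale, and passed the fold alone, with its sedentary level well above background on 1 of 2 chips. In RWR its mean was 0.45. Drd2, the receptor by which dopamine holds prolactin release down, had means of -0.08 and 0.12, and Th, which makes dopamine's precursor, of -0.16 and 0.02. Sst and Ghrh, which restrain and release growth hormone, had means of -0.01 and -0.06 with WR, and of 0.12 and 0.12 with RWR.

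Downstream of the receptors, 15 of 17 listed signalling genes had a probe, and their median log2 ratio was -0.01 in both running modes. The kinase Jak2 had means of -0.01 in Sed × WR and 0.02 in Sed × RWR, and Stat5a of -0.12 and 0.02. Stat5b, the other Stat5 factor, had means of -0.34 and -0.28, the lowest of the list in WR, with its chips on opposite sides of 0 in both pairs and its running level well above background on 1 of 2 chips. Socs2, a brake on growth hormone signalling, had means of -0.02 and 0.05, and Igf1, its main growth factor target, of 0.01 and 0.17, with chips at -0.03 and 0.36 in Sed × RWR. All 10 genes of prohormone processing and secretory granules were well above background in both pools on every chip, with median log2 ratios of 0.07 in Sed × WR and 0.03 in Sed × RWR. Pcsk1, the convertase that cuts Pomc, had means of 0.12 and 0.18, below the 1.5-fold limit. Higher on both chips of the pair were 5 of the 10 genes in WR and 1 in RWR, with Pcsk1 in both counts. The shares of all probes, dim ones included, were 11.6% and 12.4%. Signs agreed more often among probes well above background, at 28.2% in WR and 32.0% in RWR, against 22.4% and 27.2% of all probes. Of 8 receptors of the other pituitary hormones, 6 had a probe and 0 were called, against 0.0317% of all probes in WR and 0.0585% in RWR. Tshr and Lhcgr were not well above background in either pool on any chip.

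**Figure D5:**
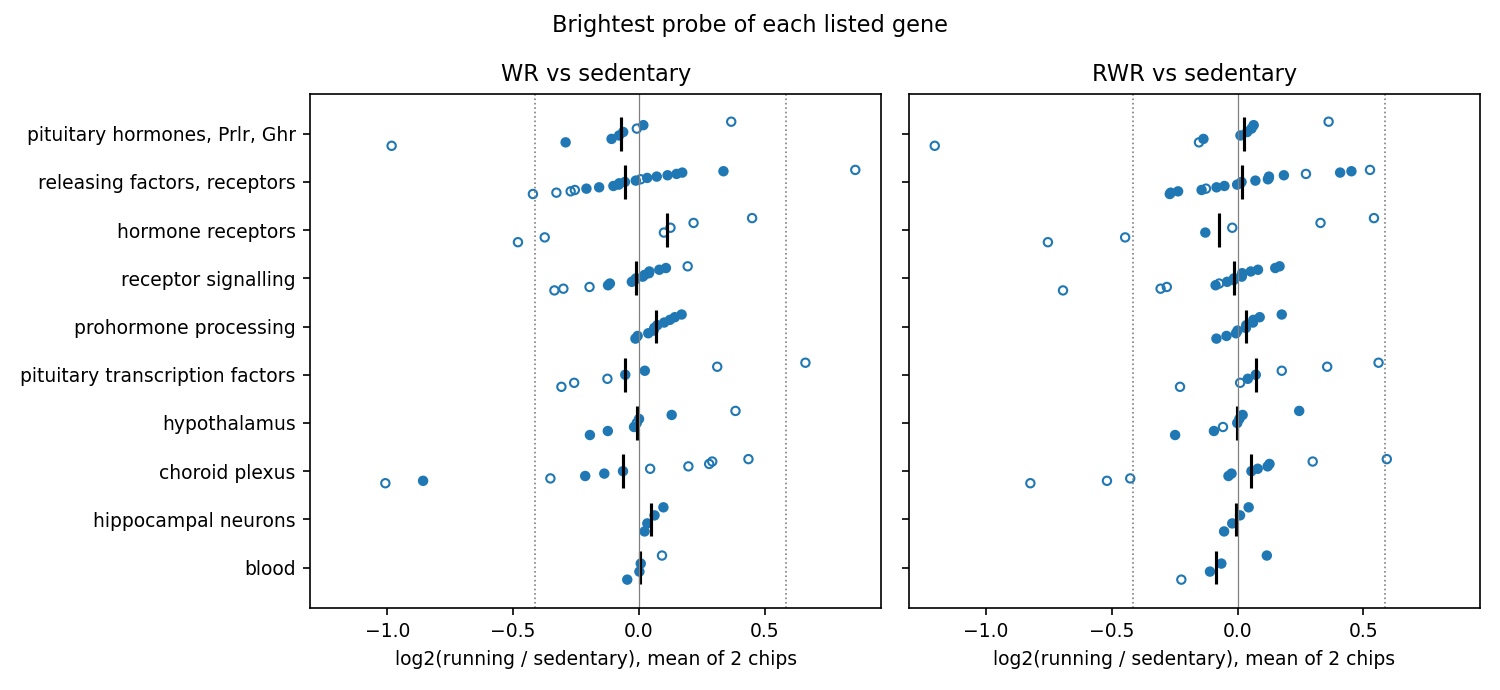
Mean log2 ratio of running over sedentary of the brightest probe of each gene in the lists, with WR on the left and RWR on the right. Filled circles are well above background in both pools on both chips, black bars are list medians and dotted lines mark 0.75-fold and 1.5-fold; the leftmost point of the top row is Prl, and the list medians stay near 0.

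Pou1f1, the pituitary factor that drives Prl, was not well above background in either pool on any chip, so no fold is given for it. Which cells the Prl signal came from was not tested. Of 12 listed pituitary transcription factors, 7 had a probe and 0 were called. With 0.0317% of all probes called in WR and 0.0585% in RWR, 0 calls carry little weight here and in the hypothalamus list below. Pitx1 and Neurod1, which were well above background on every chip, had log2 ratios of -0.05 and 0.02 with WR, and of 0.04 and 0.07 with RWR. The summed signal of this list lay between 2387 and 2605 in the sedentary pool and 2368 and 2599 in the WR pool, and between 2475 and 2778 and 2586 and 2883 in Sed × RWR. Of 10 markers of the hypothalamus, 7 had a probe and 0 were called, with medians of -0.01 and 0.00, and the 4 blood genes with a probe had medians of 0.00 and -0.09.

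Among 11 of 12 choroid plexus markers with a probe, Ttr, the thyroid hormone carrier that this tissue secretes, was called down in Sed × WR. Of all probes, 0.0293% were called down there. The log2 ratio of Ttr was -0.86, with chips at -0.72 and -0.99, and in Sed × RWR it was 0.12. The summed signal of the choroid plexus list was 3658 to 3821 in the sedentary pool and 3136 to 3426 in WR, and it overlapped in Sed × RWR, at 3809 to 4243 and 3741 to 4284. Ttr is part of this sum and alone averaged 525 in the sedentary pool and 291 in WR. Sostdc1 was also lower in WR on both chips, at -0.22 and -1.80, and was not called. In all, 5 genes of the list were lower on both chips in WR and 1, Kcnj13, was higher. The shares of all probes in WR were 10.7% lower and 11.6% higher on both chips. In RWR 0 genes of the list were called, against 0.0585% of all probes. There, 2 were lower on both chips, the dim Slc4a5 and Kcnj13, and 2 were higher, Ttr and the dim Kl, against 14.8% and 12.4% of all probes. The part of choroid plexus in the ratios of Prl was not tested.

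The genes whose ratios over the 4 chips were nearest to those of Prl, by Euclidean distance on the log2 scale among 6079 named genes whose sedentary level was well above background on every chip, were Grifin, Rpl13, Rab19, Rsad2 and Cndp1, at distances of 0.93, 1.02, 1.23, 1.26 and 1.27. Grifin, a galectin-related gene of the lens, lay between -1.02 and -0.91 on the 4 chips, and Rpl13, a ribosomal protein gene, between -0.85 and -0.75. Both were more even between the dyes than Prl. Cndp1, which encodes a carnosine dipeptidase, was the only 1 of the 5 with a chip above 0, at 0.13 on chip 2, the chip on which Prl itself was nearest to 0. Its running level, like that of Prl, was well above background on 0 of 4 chips. Candidates were filtered on the sedentary level and ranked by nearness to low ratios, so this is no separate likeness. The distances use the deposited ratios of Prl, whose size moves with the processing, and the order was not recomputed under other processing. The 4 chips share pools, so this likeness is a description of these hybridizations.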

How the data were processed

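Hippocampal RNA of sedentary, WR and RWR rats was pooled within groups and measured on 4 chips of a rat whole-genome oligo array in 2 colours. Each dye's label gave its group. The authors processed the scans with Agilent Feature Extraction 11.0.1.1, which subtracted background with spatial detrending and normalized the dyes by LOWESS. The deposited intensity is the processed signal of each dye. The deposited log10 ratio is Cy5 over Cy3, and the deposited p-value comes from the software's error model for 1 chip. Deposited flags mark outlier spots and spots well above background. The deposited series matrix holds log10 ratios and served as an alternative. The number of chips limits the precision.

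Without control and outlier spots, the ratios were expressed as log2 of running over sedentary. Replicate spots were combined by their mean ratio and median p. A probe counted as well above background where more than 50% of its spots did. Calls needed more than 1.5-fold or less than 0.75-fold and p under 0.01 on both chips. A bound on a fold used signals after Aquantile normalization in limma 3.58.1 (R 4.3.3), dividing the brighter group by the higher of the probe's own dim signal and the lowest one above background. Accessions of the array, designed on the rn4 build, were matched to RefSeq symbols of GRCr8, which gave 10759 probes of 8893 symbols. Other steps used Python 3.11.15. Of the selection, only the fold rule, without the p-value, was tested on simulated data. The simulated noise had opposite signs on the chips of a pair, so the mean of the pair was fixed in advance.

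The members and gene lists were chosen with earlier results of these data known. Named were every member with a probe, list genes that were called or stand beside a member by role, and the 5 genes most like Prl. A list gene was read by its brightest probe. Alternatives were normexp (offset 50) or no background correction with loess, median centring, the series matrix, other p-value, fold and brightness filters, the median over spots, outlier spots kept, and single chips. The count of calls with outlier spots kept was added after seeing the data.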

Additional observations from a re-analysis of the deposited data

How the results depend on the processing

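Prl kept a ratio below 0 under every alternative run, single chips included. Its log2 ratio of -0.98 in WR became -0.13 with normexp and loess and -0.17 without background correction, and ranged from -1.52 to -0.44 over single chips. That of -1.20 in RWR became -0.29 and -0.21, and ranged from -1.47 to -0.94. The cause was not tested. The 1 call in RWR became 0 under both background alternatives, with the requirement that both dyes be well above background, and with outlier spots kept. In WR the 0 calls became 1, that of Prl, with the series matrix values, without the p-value filter and with p under 0.01 on at least 1 chip. Single chips gave 1 call each in WR (Ghr on chip 2, Prl on chip 1) and 3 each in RWR (Prl and Ghr, with Tshb on chip 3), where 7.8% and 3.92% of all probes passed on chips 2 and 1 and 6.89% and 6.27% on chips 3 and 4. The Ghr calls were up on chip 3 and down on chips 2 and 4. For all probes, the 1 up and 12 down calls in WR became 0 and 5 with normexp, 0 and 6 without background correction, 4 and 24 with p on at least 1 chip and 87 and 138 without the p-value filter. The 4 and 20 in RWR became 2 and 13, 2 and 8, 5 and 70, and 36 and 572. Of the 18 ratios of the other probes, 15 kept their sign under 6 alternatives, and 3 also on single chips (Gh1 in both running modes and Pomc in RWR). For the probes with 1 spot, the median over spots and the kept outlier spots could not change the ratio. The series matrix and median centring barely moved it, so for these probes the kept signs mostly reflect both background alternatives. No paired analysis was possible because the chips of a pair are repeats of the same pools and no test was made. Low signal limits Prl, Prlr, Tshb and the dimmest Ghr probe, and 1 pool per group leaves the spread between rats unknown.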
